A study of Mus musculus with 6 samples.

Results

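Interferon-stimulated genes and antigen-processing genes were followed in the newborn mouse pancreas of 3 genotypes. The group was a fixed list of 41 genes, taken wherever a probe on the array carried the gene's symbol or an older or newer symbol of the same gene. All 41 were found among the 24165 named genes on the array, through 53 probes, and 38 of them were bright enough to be tested, among 14171 tested genes in all. The rule for membership uses gene names and no signal from the arrays. The list itself was chosen with earlier results of these data known. Its counts beside those of all tested genes are therefore descriptive and not independent evidence.

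The 6 samples were whole pancreas of C57BL/6N background at postnatal day 0.5, with 2 arrays for each genotype. Spink3+/+ is the wild type, with both copies of Spink3, which encodes a trypsin inhibitor secreted by acinar cells. Spink3-/- mice lack the gene. The series text describes death of all their acinar cells, with autophagy and without apoptosis. Spink3-/-XKI/+ mice lack Spink3 too and carry the allele written as XKI/+, which the labels do not spell out. For this genotype the series text describes a mixture of normal acinar cells and acinar cells that die in the same way. No label states that the samples are separate animals; p-values therefore cover the spread between these arrays alone, which may be technical.

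Each array was 1 hybridisation of total RNA labelled with Cy3, and all 6 lay on 1 slide that was scanned once. Between 42.4% and 50.8% of the probes were well above background per array, and no spot was saturated. Precision is limited by the number of arrays. Levels are given as log2 of the processed signal over the array's 75th percentile, so a level of 0 is as bright as that percentile. Levels were compared between arrays for 1 gene at a time and not between genes. Spink3 itself read 9.84 and 10.26 in Spink3+/+, 3.25 and 2.95 in Spink3-/-, and 2.64 and 2.34 in Spink3-/-XKI/+. Its log2 difference was -6.95 ± 0.23 (SE) in Spink3-/- and -7.56 ± 0.23 in Spink3-/-XKI/+ against Spink3+/+ (limma adjusted p = 0.00103 and 0.000614). Markers of acinar cells were abundant on every array, with summed levels of 15330 to 19910 times the 75th percentile over 15 genes.

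Interferons are secreted proteins that warn cells of infection or damage. Type I interferons signal through their receptor and the kinases Jak1 and Tyk2 to ISGF3, a complex that includes Stat2 and Irf9 and binds the interferon-stimulated response element (ISRE) in the promoters of its target genes. Interferon gamma acts mainly through the gamma-activated site (GAS). The targets include sensors of foreign RNA, proteins that block steps of viral growth, the ubiquitin-like protein Isg15, GTPases that attack vacuoles holding microbes, and the proteasome subunits and peptide transporter that supply MHC class I.

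Promoter sequences from RefSeq (GRCm38.p6), each 300 bases long and reaching from 250 before to 50 after a transcription start, were searched for the ISRE core GAAANNGAA and for the GAS letters TTCNNNGAA on both strands; matches of the motifs may overlap each other. Symbols matched 31 members with 35 promoters. The others were Dhx58, Parp9, Parp14, Mx1, Mx2, Oas2, Usp18, Ifi27l2a, Rtp4 and Iigp1. An ISRE core stood in 18 of the 35 promoters (51.4%), against 8.56% of all 32851 promoters of that length, and a GAS match in 9 (25.7%), against 8.3%. By role, the ISRE core was found for 3 of 3 RNA sensors, 4 of 4 GTPases, 6 of 10 antiviral effectors, 2 of 4 genes of the ISG15 system and its neighbours, 2 of 5 signal transducers and 1 of 5 antigen-processing genes. A match is a run of letters and not a measured binding site.

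The 170 bases before the transcription start are shown for 6 members, on the strand of the gene, with every ISRE core and GAS match in capitals. Isg15 (chr4:156200819-156200988, minus strand), Ifit3 (chr19:34583359-34583528, plus strand), Bst2 (chr8:71537473-71537642, minus strand) and Irgm1 (chr11:48871421-48871590, minus strand) are shown as members with an ISRE core and an unadjusted p under 0.05 between the Spink3-deficient genotypes. Gbp2 (chr3:142620493-142620662, plus strand) is shown as a gene with an ISRE core whose level hardly differed, and Psmb8 (chr17:34198025-34198194, plus strand) as an antigen-processing gene with a GAS match alone. Isg15 and Ifit3 each held 3 ISRE cores, Bst2 and Irgm1 held 2, and Gbp2 held 1. In Isg15, Bst2 and Irgm1 the matches overlapped and made 1 run of capitals.
Isg15: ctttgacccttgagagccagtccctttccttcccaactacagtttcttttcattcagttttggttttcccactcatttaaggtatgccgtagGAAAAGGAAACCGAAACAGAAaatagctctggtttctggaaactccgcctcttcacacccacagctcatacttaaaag
Ifit3: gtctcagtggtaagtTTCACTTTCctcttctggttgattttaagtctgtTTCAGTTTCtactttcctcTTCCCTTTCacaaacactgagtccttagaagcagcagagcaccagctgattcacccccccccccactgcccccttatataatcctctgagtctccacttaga
Bst2: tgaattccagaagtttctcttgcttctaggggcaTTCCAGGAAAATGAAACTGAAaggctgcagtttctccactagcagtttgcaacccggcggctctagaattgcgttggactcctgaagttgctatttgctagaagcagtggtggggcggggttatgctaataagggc
Irgm1: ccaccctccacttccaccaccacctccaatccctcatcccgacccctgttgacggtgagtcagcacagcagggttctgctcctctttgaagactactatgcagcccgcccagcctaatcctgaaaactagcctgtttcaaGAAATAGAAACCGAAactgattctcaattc
Gbp2: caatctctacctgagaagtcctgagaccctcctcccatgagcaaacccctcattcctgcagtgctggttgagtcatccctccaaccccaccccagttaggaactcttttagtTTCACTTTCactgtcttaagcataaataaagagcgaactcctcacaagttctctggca
Psmb8: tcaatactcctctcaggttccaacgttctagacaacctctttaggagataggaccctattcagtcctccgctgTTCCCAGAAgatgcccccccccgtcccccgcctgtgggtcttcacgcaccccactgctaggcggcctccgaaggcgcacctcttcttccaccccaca

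Across the list, levels were highest in Spink3-/- and lowest in Spink3-/-XKI/+, and no member passed the threshold of an adjusted p under 0.05 in any comparison. Between the Spink3-deficient genotypes, 35 of the 38 tested members were higher in Spink3-/- and 3 were lower, with a median log2 difference of 0.58, while 42.7% of all tested genes were higher and their median was -0.04. Called members numbered 0 in limma with Benjamini-Hochberg adjustment (lowest adjusted p = 0.408), where 0.00706% of all tested genes were called. At an unadjusted p under 0.05, 12 members were higher and 0 lower, where 2.43% of all tested genes were higher and 4.77% lower. The Spink3-/- levels lay above both Spink3-/-XKI/+ arrays for 22 members and below them for 0, where 13.1% and 21.4% of all tested genes did so; 1 of the 22, Psmb10, had only 1 Spink3-/- array. Mx1 passed the filter on dim probes only through Spink3-/-, where it was brightest, so it had to differ; without it 34 of 37 members were higher, 11 at an unadjusted p under 0.05, and the median was 0.58. Without Spink3-/-XKI/+ replicate 2 the median was 0.33, with 28 members higher and 5 at an unadjusted p under 0.05; without Spink3-/- replicate 1 it was 0.37, with 31 higher and 6 at that p. After normexp background correction it was 0.37.

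Against Spink3+/+, the median log2 difference of the tested members was 0.21 in Spink3-/-, with 32 higher and 6 lower, while 49.1% of all tested genes were higher and their median was -0.01. No member was called by limma (0 of 38, lowest adjusted p = 0.927, where 0.0353% of all tested genes were called), and 2 members, Ifit3 and Mx1, were higher at an unadjusted p under 0.05, where 2.73% of all tested genes were higher and 2.33% lower; without Mx1 it was 1 member. The Spink3-/- levels lay above both Spink3+/+ arrays for 12 members, Psmb10 with its single Spink3-/- array included, and below them for 0, where 16.2% and 16.6% of all tested genes did so. Single arrays moved the median: it was 0.04 without Spink3-/- replicate 1, with 22 members higher, 0.09 without Spink3+/+ replicate 1, with 25 higher, 0.36 without Spink3+/+ replicate 2 and 0.41 without Spink3-/- replicate 2. When arrays were scaled to spike-in spots, the median of all tested genes moved to 0.10 and that of the members to 0.31, and 37 of the 38 were higher.

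In Spink3-/-XKI/+ the median log2 difference from Spink3+/+ was -0.35, with 6 members higher and 32 lower, while 56.3% of all tested genes were higher and their median was 0.04. No member was called by limma (0 of 38, lowest adjusted p = 0.576, where 0.00706% of all tested genes were called). At an unadjusted p under 0.05, 5 members were lower (Stat2, Bst2, Isg15, Ifi44 and Ifi35) and 0 higher, where 2.54% of all tested genes were lower and 5.02% higher; the 5 became 0 with the row of the slide as a block and 0 under spike-in scaling. Both arrays lay below both Spink3+/+ arrays for 16 members and above them for 0, where 16.1% and 26% of all tested genes did so. The median was -0.09 without Spink3+/+ replicate 2, -0.17 without Spink3-/-XKI/+ replicate 2, -0.55 without Spink3-/-XKI/+ replicate 1 and -0.23 after normexp background correction. For 4 members, Stat2, Ifit3, Bst2 and Isg15, both Spink3-/- arrays lay above and both Spink3-/-XKI/+ arrays below the Spink3+/+ arrays, as did the 1 Spink3-/- array of Psmb10, a pattern of 0.931% of all tested genes; 0 members had the opposite pattern, which 1.95% of all tested genes had. For Stat2 and Bst2 the nearest Spink3-/- and Spink3+/+ arrays were almost level, at 2.037 and 2.034, and at 3.618 and 3.606. The 3 comparisons between genotypes share arrays in pairs, so their values are given side by side and are not separate evidence.

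**Figure D1:**
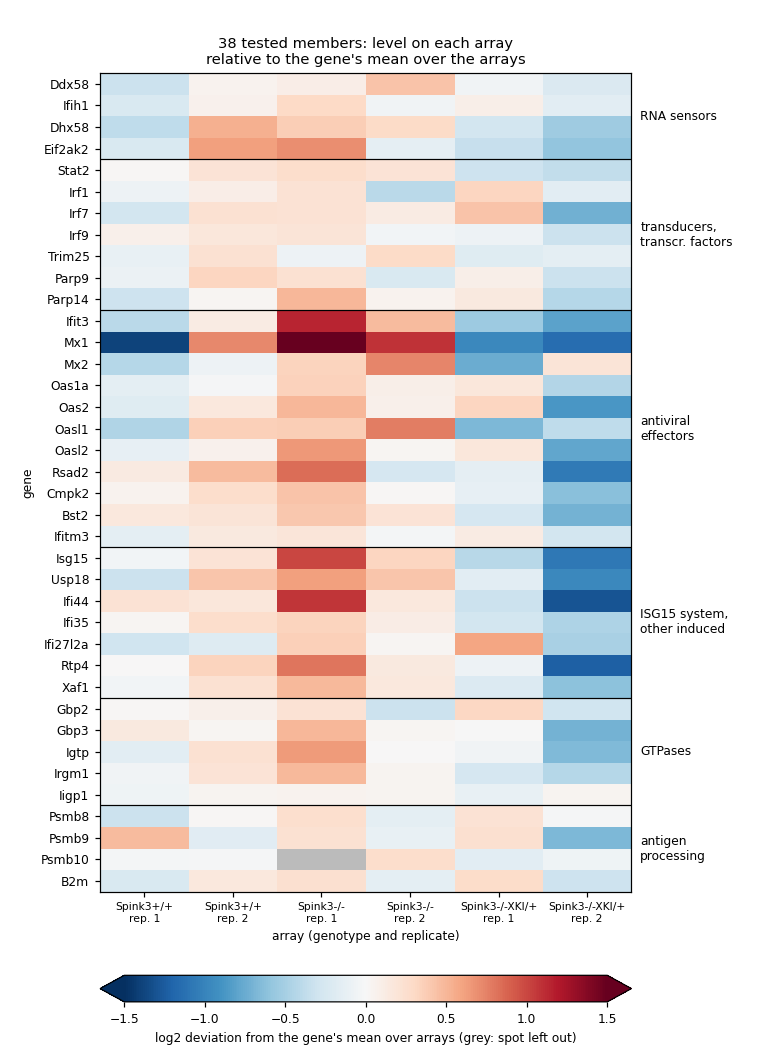
Level of each of the 38 tested members (rows, grouped by role) on each of the 6 arrays (columns), as the log2 deviation from that gene's mean over its arrays; red is above and blue below the mean, and grey is a spot left out. Spink3-/- replicate 1 is the highest of the 6 arrays for 25 members and Spink3-/-XKI/+ replicate 2 the lowest for 27.

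The position of an array on the slide limits the comparison of Spink3-/-XKI/+ with Spink3+/+ most, and the comparisons with Spink3-/- in part. Per the file headers, the first row of the slide held both Spink3+/+ arrays and Spink3-/- replicate 1, and the second row held Spink3-/- replicate 2 and both Spink3-/-XKI/+ arrays. The row and these genotypes therefore cannot be told apart, except through the Spink3-/- arrays that lay in both rows. With the row as a block the median difference of Spink3-/-XKI/+ from Spink3+/+ was -0.01, with 18 members higher and 20 lower. In that fit the median was 0.37 for Spink3-/- against Spink3-/-XKI/+, with 31 higher and 7 lower. For Spink3-/- against Spink3+/+ it was 0.40, with 37 higher and 1 lower. These counts include Psmb10, which had no usable Spink3-/- array in the first row, so its value was not adjusted for the row. Within the first row, Spink3-/- replicate 1 was above the mean of the Spink3+/+ arrays for 36 of 37 members, where 45.2% of all tested genes were, with a median of 0.41. Within the second row, Spink3-/- replicate 2 was above the mean of the Spink3-/-XKI/+ arrays for 31 of 38 members, where 47.7% of all tested genes were, with a median of 0.37. Spink3-/- replicate 1 exceeded both Spink3+/+ arrays for 32 members (31.9% of all tested genes), and Spink3-/- replicate 2 exceeded both Spink3-/-XKI/+ arrays for 22 members (32.2% of all tested genes). The 2 within-row differences use no array in common, and each rests on 1 Spink3-/- array. The value of 0.37 is the same quantity within the second row, with the row block and without Spink3-/- replicate 1. Likewise, 0.41 within the first row and without Spink3-/- replicate 2 is the same quantity as 0.40 with the row block, apart from Psmb10. These are therefore not separate checks.

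**Figure D2:**
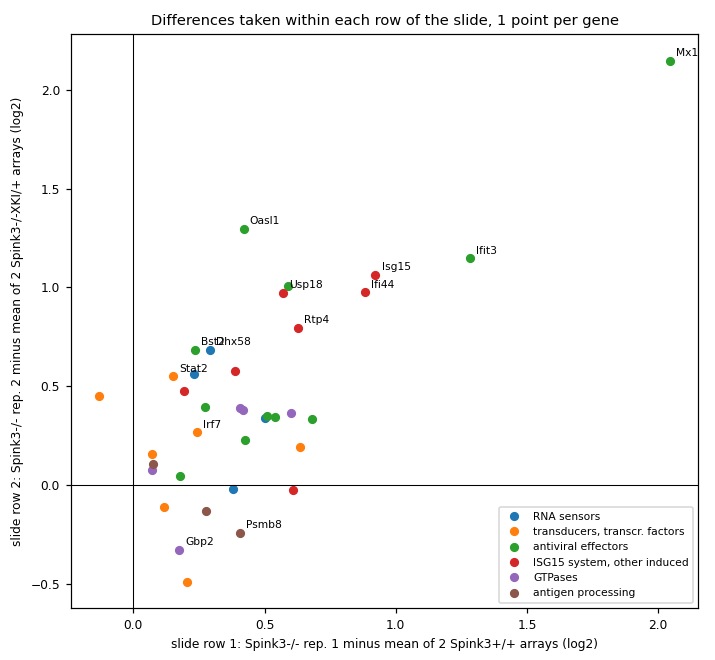
Difference of Spink3-/- replicate 1 from the mean of the 2 Spink3+/+ arrays (horizontal axis, log2) against the difference of Spink3-/- replicate 2 from the mean of the 2 Spink3-/-XKI/+ arrays (vertical axis, log2), with 1 point for each of 37 members coloured by role. Mx1, Ifit3, Isg15 and Ifi44 lie farthest to the upper right, while Psmb8, Gbp2 and Irf1 lie below 0 on the vertical axis.

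Arrays of the same genotype also differed along this list. Replicate 2 was the higher Spink3+/+ array for 35 of 38 members, replicate 1 the higher Spink3-/- array for 33 of 37, and replicate 1 the higher Spink3-/-XKI/+ array for 33 of 38. The median absolute difference between the arrays of a genotype was 0.31, 0.40 and 0.47 on the log2 scale for the members, and 0.19, 0.28 and 0.23 for all tested genes. The members' median deviation from their mean was -0.12 and 0.17 in Spink3+/+, 0.37 and 0.06 in Spink3-/-, and -0.10 and -0.48 in Spink3-/-XKI/+. The members thus shifted together between arrays of 1 genotype. In bulk tissue, fewer cells that express a gene and less of its RNA per cell cannot be told apart.

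The RNA sensors recognise foreign or misplaced RNA: Ddx58 (RIG-I) and Ifih1 (MDA5) start interferon induction, Dhx58 (LGP2) modulates them, and Eif2ak2 (PKR) halts translation on double-stranded RNA. All 4 were tested, and all 4 were higher in Spink3-/- than in Spink3-/-XKI/+, with a median log2 difference of 0.56 and 0 called. Ddx58 read 0.65 and 1.03 in Spink3+/+, 1.07 and 1.39 in Spink3-/-, and 0.92 and 0.75 in Spink3-/-XKI/+. Both Spink3-/- arrays were above the other 4, and the difference from Spink3+/+ was 0.39 ± 0.21 (SE; limma adjusted p = 0.987). Dhx58 read -1.47 and -0.55 in Spink3+/+, -0.72 and -0.80 in Spink3-/-, and -1.36 and -1.62 in Spink3-/-XKI/+. Its Spink3-/- arrays lay above the Spink3-/-XKI/+ arrays but between the Spink3+/+ arrays. For Eif2ak2 the difference between the Spink3-deficient genotypes was 0.75 and for Ifih1 it was 0.16.

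The transducers and transcription factors differed less. Over the 7 genes, the median difference between Spink3-/- and Spink3-/-XKI/+ was 0.28, from -0.18 for Irf1 to 0.58 for Stat2. Stat2, the subunit that carries the activation domain of ISGF3, read 1.85 and 2.03 in Spink3+/+, 2.09 and 2.04 in Spink3-/-, and 1.52 and 1.46 in Spink3-/-XKI/+. The Spink3-/-XKI/+ arrays were the 2 lowest, with no overlap with either other genotype. The difference between Spink3-/- and Spink3-/-XKI/+ was 0.58 ± 0.16 (SE; unadjusted p = 0.0124, limma adjusted p = 0.554), and that between Spink3-/-XKI/+ and Spink3+/+ was -0.45 ± 0.16 (limma adjusted p = 0.627). Irf9, the DNA-binding subunit of ISGF3, differed by 0.28 between the Spink3-deficient genotypes, again without overlap.

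Irf7, which amplifies type I interferon production and is itself an interferon target, read -1.79 and -1.30 in Spink3+/+, -1.30 and -1.40 in Spink3-/-, and -1.09 and -2.24 in Spink3-/-XKI/+. The last 2 values were the highest and the lowest of all 6, so the genotypes overlapped. Parp14, an ADP-ribosyltransferase, read -0.05 and 0.29 in Spink3+/+, 0.75 and 0.31 in Spink3-/-, and 0.41 and -0.16 in Spink3-/-XKI/+. Its Spink3-/- arrays were above Spink3+/+ but not above both Spink3-/-XKI/+ arrays. Irf1, which interferon gamma induces, Parp9, a partner of Parp14, and Trim25, the ubiquitin ligase that activates RIG-I, had differences of -0.18, 0.12 and 0.27 between the Spink3-deficient genotypes. A second Trim25 probe gave 0.02. It shares a run of at least 25 bases with 35 other probes, so it may not read Trim25 alone.

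Among the 13 antiviral effectors, 11 were tested and all 11 were higher in Spink3-/- than in Spink3-/-XKI/+, with a median log2 difference of 0.79 and 0 called. Ifit3, which partners Ifit1 in holding back foreign mRNA, read -0.25 and 0.28 in Spink3+/+, 1.30 and 0.62 in Spink3-/-, and -0.40 and -0.65 in Spink3-/-XKI/+. The 3 genotypes did not overlap. Ifit3 differed by 1.48 ± 0.30 (SE; unadjusted p = 0.00236, limma adjusted p = 0.408) between Spink3-/- and Spink3-/-XKI/+, the smallest p of any member, and by 0.95 ± 0.30 (limma adjusted p = 0.927) between Spink3-/- and Spink3+/+. Its probe lies at chr19:34663105-34663164 (mm9).

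Oasl1, an OAS-like protein that restrains Irf7 translation, read 1.22 and 2.03 in Spink3+/+, 2.05 and 2.45 in Spink3-/-, and 1.00 and 1.30 in Spink3-/-XKI/+. Both Spink3-/- arrays were above the other 4, with replicate 2 the higher, and the difference from Spink3-/-XKI/+ was 1.10 ± 0.31 (SE; limma adjusted p = 0.554). Bst2 (tetherin), which holds budding virions at the cell surface, read 3.57 and 3.61 in Spink3+/+, 3.82 and 3.62 in Spink3-/-, and 3.16 and 2.71 in Spink3-/-XKI/+. Both Spink3-/-XKI/+ arrays were below the other 4. Bst2 differed by 0.79 ± 0.21 (SE; limma adjusted p = 0.552) between Spink3-/- and Spink3-/-XKI/+ and by -0.65 ± 0.21 (limma adjusted p = 0.576) between Spink3-/-XKI/+ and Spink3+/+.

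Mx1, a gene of the dynamin-like GTPases, was dim. It was well above background on 3 arrays, both of Spink3-/- and 1 of Spink3+/+, and on 0 of the Spink3-/-XKI/+ arrays. Its level read -4.42 and -2.31 in Spink3+/+, -1.32 and -1.93 in Spink3-/-, and -4.00 and -4.17 in Spink3-/-XKI/+. Against the lowest signal still measured in Spink3-/-XKI/+, Mx1 was at least 3.13-fold higher in Spink3-/- (limma adjusted p = 0.552), a description of a gene that was tested only because it was bright in Spink3-/-. Such a bound sets the bright group's mean against, on each array of the dim group, the dimmest signal that still counted as well above background, or the probe's own signal where that is higher. Mx2 differed by 0.81 without overlap between the Spink3-deficient genotypes.

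The other effectors had smaller or more variable differences between Spink3-/- and Spink3-/-XKI/+. Rsad2 (viperin) and its genomic neighbour Cmpk2, which make an antiviral nucleotide together, had differences of 0.89 and 0.60. A second Cmpk2 probe gave 0.29 for this difference, and -0.27 in place of 0.06 for Spink3-/- against Spink3+/+. The oligoadenylate synthetases Oas1a and Oas2 and the related Oasl2 had 0.35, 0.56 and 0.64, with arrays that overlapped. Ifitm3, which hinders viral fusion, had 0.15. Ifit1 and Ifit2 were not tested, since each was well above background on 3 arrays but never on both arrays of a genotype. Ifit1 read -2.45 and -2.08 in Spink3+/+, -0.98 and -2.12 in Spink3-/-, and -2.38 and -2.69 in Spink3-/-XKI/+, with Spink3-/- replicate 1 the highest array.

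The ISG15 system and other interferon-induced proteins had the largest median difference of the 6 roles. All 7 genes were higher in Spink3-/- than in Spink3-/-XKI/+, with a median of 1.07, and 6 of them had an unadjusted p under 0.05 and no overlap, with 0 called. Isg15, a ubiquitin-like protein attached to other proteins during an interferon response, read 3.40 and 3.64 in Spink3+/+, 4.44 and 3.76 in Spink3-/-, and 3.03 and 2.37 in Spink3-/-XKI/+. The 3 genotypes did not overlap. Isg15 differed by 1.40 ± 0.32 (SE; unadjusted p = 0.00438, limma adjusted p = 0.489) between Spink3-/- and Spink3-/-XKI/+, and by -0.82 ± 0.32 (limma adjusted p = 0.648) between Spink3-/-XKI/+ and Spink3+/+; the latter was -0.14 with the row of the slide as a block. Within the slide rows, Isg15 was higher in Spink3-/- by 0.92 and 1.06.

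Isg15 was read by a pair of probes. The brighter one, at chr4:155573649-155573708 (mm9), shares a run of 35 bases with the probe of Gm9706, a gene model resembling Isg15, so the signals of these genes may not be separate. Gm9706 read 1.08 and 1.24 in Spink3+/+, 2.02 and 1.20 in Spink3-/-, and 0.72 and 0.27 in Spink3-/-XKI/+, the same order of genotype means as Isg15. The other Isg15 probe shares no run of 25 bases with any probe of another gene. It read -1.16 and -0.69 in Spink3+/+, -0.08 and -1.002 in Spink3-/-, and -1.83 and -2.39 in Spink3-/-XKI/+, and its difference between Spink3-/- and Spink3-/-XKI/+ was 1.57. On this probe Spink3-/- and Spink3+/+ overlapped.

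Usp18, the protease that removes Isg15 from proteins and dampens the type I receptor, read -0.93 and -0.19 in Spink3+/+, 0.01 and -0.19 in Spink3-/-, and -0.76 and -1.57 in Spink3-/-XKI/+. It differed by 1.07 ± 0.35 (SE; limma adjusted p = 0.586) between the Spink3-deficient genotypes, without overlap. Ifi44 read -1.15 and -1.20 in Spink3+/+, -0.29 and -1.20 in Spink3-/-, and -1.69 and -2.67 in Spink3-/-XKI/+. It was well above background on 5 arrays, of which only 1 was a Spink3-/-XKI/+ array. Its Spink3-/- arrays spanned from the level of Spink3+/+ to the highest of the 6, and the difference from Spink3-/-XKI/+ was 1.43 ± 0.41 (limma adjusted p = 0.554).

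Rtp4, a receptor transport protein induced by type I interferon, read 0.49 and 0.82 in Spink3+/+, 1.29 and 0.63 in Spink3-/-, and 0.41 and -0.74 in Spink3-/-XKI/+. Spink3-/-XKI/+ replicate 2 stood well below the other 5 arrays, and the difference between the Spink3-deficient genotypes was 1.12 ± 0.42 (SE; limma adjusted p = 0.642). Xaf1, which promotes apoptosis by binding XIAP, read 1.22 and 1.49 in Spink3+/+, 1.74 and 1.42 in Spink3-/-, and 1.05 and 0.64 in Spink3-/-XKI/+. Ifi35 read 1.08 and 1.31 in Spink3+/+, 1.39 and 1.16 in Spink3-/-, and 0.78 and 0.59 in Spink3-/-XKI/+. For both, the Spink3-/-XKI/+ arrays were the 2 lowest of the 6, and the differences from Spink3-/- were 0.74 and 0.59. Ifi27l2a was the exception of its role, at 0.14, with Spink3-/-XKI/+ replicate 1 the highest array.

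**Figure D3:**
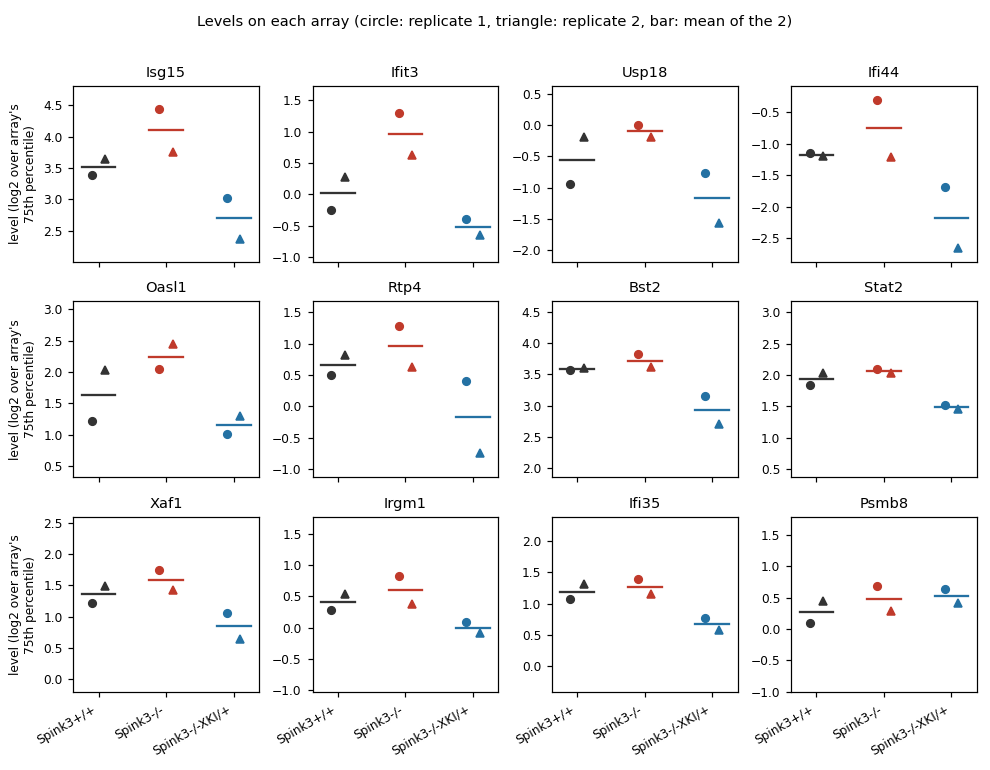
Level of 12 members on each array, as log2 over the array's 75th percentile, with circles for replicate 1, triangles for replicate 2 and a bar for the mean of the 2; all panels span the same range of log2 units around their own centre. Isg15 and Ifit3 separate all 3 genotypes on the probe shown, Bst2 and Stat2 barely separate Spink3-/- from Spink3+/+, most other panels show Spink3-/-XKI/+ lowest, and Psmb8 shows the genotypes overlapping.

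The GTPases induced by interferon gamma act on vacuoles that hold bacteria or parasites. Over the 5 genes the median difference between Spink3-/- and Spink3-/-XKI/+ was 0.60, with 4 higher and 0 called. Irgm1, a regulator of this family and of autophagy, read 0.28 and 0.54 in Spink3+/+, 0.83 and 0.38 in Spink3-/-, and 0.09 and -0.09 in Spink3-/-XKI/+. Both Spink3-/- arrays were above both Spink3-/-XKI/+ arrays, with a difference of 0.60 ± 0.22 (SE; limma adjusted p = 0.634). A second Irgm1 probe gave 0.45 for this difference, and -0.34 in place of 0.19 for Spink3-/- against Spink3+/+. Igtp (Irgm3) read -0.69 and -0.30 in Spink3+/+, 0.11 and -0.53 in Spink3-/-, and -0.60 and -1.20 in Spink3-/-XKI/+. Its Spink3-/- arrays were above both Spink3-/-XKI/+ arrays and overlapped with Spink3+/+. Gbp3 differed by 0.62 between the Spink3-deficient genotypes, while Gbp2 and Iigp1 had -0.06 and 0.08.

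The antigen-processing genes had the smallest median difference between the Spink3-deficient genotypes of the 6 roles. Psmb8, Psmb9 and Psmb10 are the catalytic subunits of the immunoproteasome, Tap1 moves peptides into the endoplasmic reticulum, and B2m is the light chain of MHC class I. Over the 4 tested genes the median difference was 0.17 between Spink3-/- and Spink3-/-XKI/+, 0.15 between Spink3-/- and Spink3+/+, and -0.04 between Spink3-/-XKI/+ and Spink3+/+, with 0 called and 0 at an unadjusted p under 0.05. Psmb8 read 0.10 and 0.45 in Spink3+/+, 0.68 and 0.29 in Spink3-/-, and 0.64 and 0.42 in Spink3-/-XKI/+. The genotypes overlapped, and the difference between the Spink3-deficient genotypes was -0.04 with a 95% confidence interval from -0.59 to 0.50. B2m had a difference of 0.06, with an interval from -0.62 to 0.75. Intervals of this width do not show that the genotypes had the same level.

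Psmb10 read 7.27 and 7.28 in Spink3+/+, 7.56 on the 1 usable Spink3-/- array, and 7.13 and 7.23 in Spink3-/-XKI/+. Its spot on the other Spink3-/- array was flagged as an outlier by the scanner software and left out, so the Spink3-/- mean and its fit rest on 1 array. Psmb9 read highest in Spink3+/+ replicate 1, at 0.41, and lowest in Spink3-/-XKI/+ replicate 2, at -0.74. Tap1 was well above background on 0 arrays and was not tested. The promoter windows of Psmb9 and Tap1 overlap, since these genes start back to back in opposite directions.

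**Figure D4:**
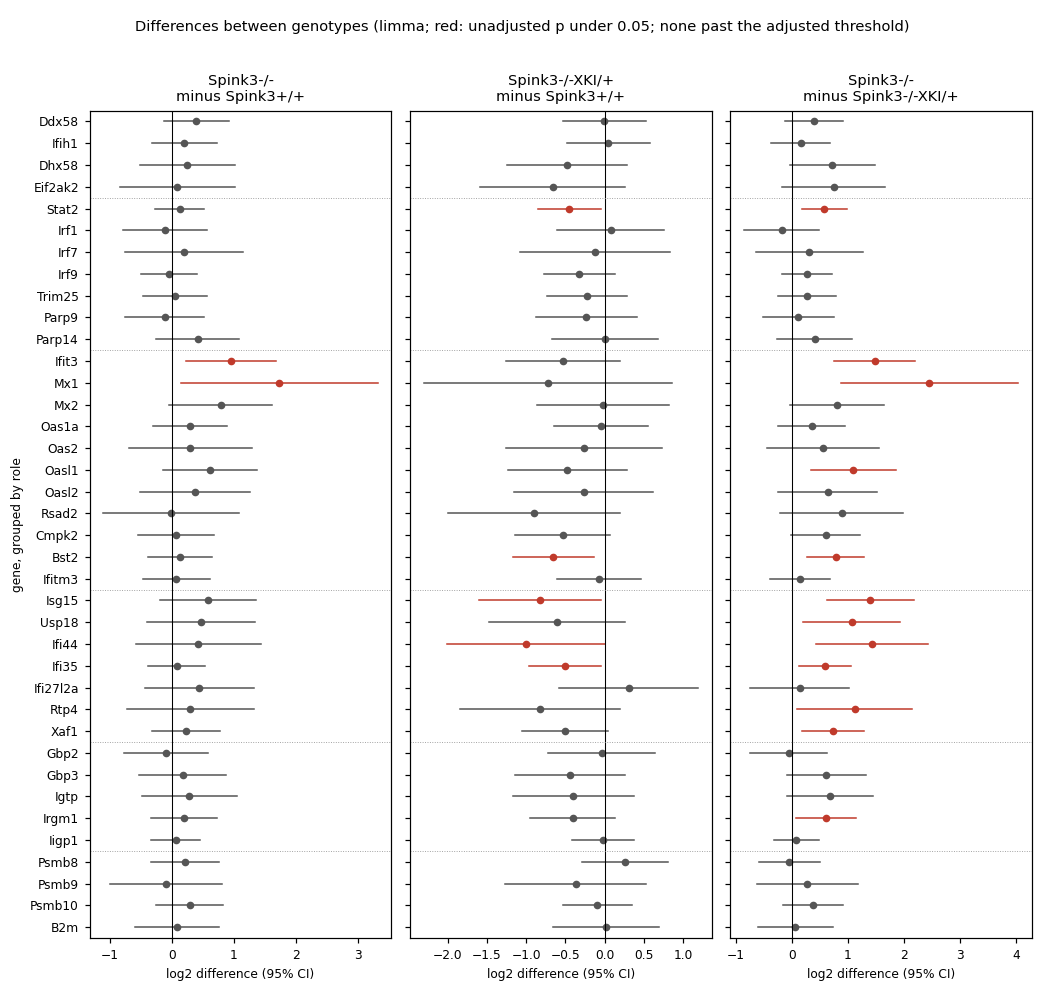
Log2 difference of each tested member (rows, grouped by role) in the 3 comparisons, as a point with its 95% confidence interval from limma; red marks an unadjusted p under 0.05. In the right panel, Spink3-/- minus Spink3-/-XKI/+, 35 of 38 points lie above 0 and 12 are red, and no member passed the adjusted threshold.

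Promoter letters were set beside the differences between Spink3-/- and Spink3-/-XKI/+. The 17 tested members with an ISRE core in a promoter had a median difference of 0.60, from -0.06 to 1.48, and 6 of them had an unadjusted p under 0.05. The 11 tested members whose promoters held no ISRE core had a median of 0.38, from -0.18 to 1.10, and 3 of them had such a p. The ranges overlapped widely, and for the 10 tested members outside the promoter table the median was 0.64.

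Further genes of the pathway were read from lists of interferons, receptors and kinases, the induction pathway, other factors, feedback inhibitors, other MHC class I genes and chemokines. Of these 77 genes, 73 had a probe and 55 were tested; 0 were called in any comparison, and their median difference was -0.04 between Spink3-/- and Spink3-/-XKI/+, 0.03 between Spink3-/- and Spink3+/+ and 0.08 between Spink3-/-XKI/+ and Spink3+/+. Among 8 tested interferon genes, 1 was higher and 7 lower in Spink3-/- than in Spink3-/-XKI/+, with a median of -0.25. These counts include Ifna2, which passed the filter only through Spink3-/-XKI/+, where it was brightest. Only Ifnz and Ifnl3 were well above background on all 6 arrays, and the others on 2 to 5. The counts therefore describe mostly dim probes and do not give a direction for the interferons. Ifnb1 and Ifng were below background on all 6 arrays, as were Ifna4, Ifna7 and Ifna13. The receptor chains Ifnar1, Ifnar2, Ifngr1 and Ifngr2 and the kinase Jak1 were above background on every array, with differences between Spink3-/- and Spink3-/-XKI/+ from -0.19 for Ifngr2 to 0.11 for Ifnar2.

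Some pathway genes had an unadjusted p under 0.05 in limma, and none of them was called. Ifna2, a type I interferon gene, read -3.88 and -3.80 in Spink3+/+, -3.87 and -2.90 in Spink3-/-, and -2.35 and -1.74 in Spink3-/-XKI/+, and was well above background on 2 arrays, so that it was tested only through the genotype where it was brightest. Ifna1, well above background on 3 arrays, had a difference of -0.63 between Spink3-/- and Spink3-/-XKI/+ and -0.52 between Spink3-/- and Spink3+/+. The interferon alpha genes are near-identical copies, so their probes may not be specific. Tbk1, the kinase that activates Irf3, had -0.83 between Spink3-/-XKI/+ and Spink3+/+. Ptpn6 (SHP-1), a phosphatase that dampens cytokine receptors, had 0.53 in that comparison.

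Markers of other cells and tissues moved with genotype as well, and their part in the results was not tested. The summed level of 12 liver genes was 63.3 and 79.8 in Spink3+/+, 127 and 119 in Spink3-/-, and 71.7 and 89.1 in Spink3-/-XKI/+, in units of the array's 75th percentile; 10 of the 12 were above background on every array. Gene by gene, the liver list had a median log2 difference of 1.53 for Spink3-/- against Spink3+/+, with 12 higher and 0 lower. Against Spink3-/-XKI/+ it was 1.53, with 11 higher and 1 lower. At an unadjusted limma p under 0.05, 7 and 6 were higher and 0 lower, where 2.73% and 2.43% of all tested genes were higher. By their sums, liver genes were highest in Spink3-/-. The mean sum was lowest in Spink3+/+, where the 2 arrays overlapped those of Spink3-/-XKI/+. The 14 macrophage genes summed to 141 and 145 in Spink3+/+, 162 and 172 in Spink3-/-, and 180 and 182 in Spink3-/-XKI/+. Itgam made up most of that sum. Gene by gene, 3 macrophage genes were higher and 11 lower in Spink3-/- against Spink3-/-XKI/+. Neutrophil genes summed to 116 and 168, 76.8 and 98.3, and 98.7 and 94.7 in the same order of genotypes. Gene by gene, 2 neutrophil genes were higher and 7 lower in Spink3-/- against Spink3+/+. Against Spink3-/-XKI/+, 6 were higher and 3 lower. In the same order, 5 erythroid genes summed to 819 and 371, 397 and 418, and 290.3 and 270.0. Of 17 markers of T, B and NK cells, 6 were below background on all arrays, Cd3d, Cd3g, Cd8a, Ncr1, Klrb1c and Gzmb, and the 8 tested summed to between 37.3 and 57.8 on every array. Duct genes summed to 392 and 381 in Spink3+/+, 460 and 635 in Spink3-/-, and 363 and 507 in Spink3-/-XKI/+. Krt18 and Krt8 made up most of that sum. Gene by gene, 4 duct genes were higher and 5 lower in Spink3-/- against Spink3+/+, with a median log2 difference of -0.005. The counts were the same against Spink3-/-XKI/+, with a median of -0.06. The 5 tested markers of plasmacytoid dendritic cells, a main source of type I interferon, summed to 524 and 590 in Spink3-/- and 483 and 610 in Spink3-/-XKI/+. Siglech made up most of that sum and Bst2 is itself a member; the other 3 summed to 15.2 and 17.2 in Spink3-/- and to 17.3 and 18.9 in Spink3-/-XKI/+. Of all 5, Bst2 and Cox6a2 were higher in Spink3-/- than in Spink3-/-XKI/+ at an unadjusted limma p under 0.05, by 0.79 and 1.02. Cox6a2 was dim and well above background on only 4 arrays. Siglech, Tcf4 and Il3ra differed by 0.03, -0.29 and -0.10.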

How the data were processed

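Whole-pancreas RNA of 6 samples was hybridised to 1-colour Agilent arrays with 60-base probes. Per the file headers, the scanner intensity (processed signal) had its background subtracted with spatial detrending by Agilent Feature Extraction 10.7.3.1, which the submitters' processing notes also name; array coordinates are mm9. The deposited series values matched the scanner intensity exactly, so their scale is the same linear one, with medians of 15.2 to 19.9. The deposited flag (other unit) for a signal well above background was used as a filter. Here, each array's log2 intensity was centred on its 75th percentile, taken over the 59305 spots other than controls; outlier spots were dropped, and spots of a probe were averaged. A probe was kept if well above background on both arrays of a genotype (24824 of 55681, 44.6%), and a gene was read by its brightest kept probe. Of 12 members with a second probe, 5 had it kept.

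A single limma model (lmFit and eBayes, limma 3.58.1, R 4.3.3) was fitted to all 6 arrays with 3 residual degrees of freedom, two-sided, with Benjamini-Hochberg adjustment over 14171 genes and a threshold of 0.05; the script was tested on simulated data. Members were given on every array if they had an unadjusted p under 0.05 in any comparison or were among the 2 of their role with the largest difference between Spink3-/- and Spink3+/+; of other pathway genes, those with such a p were named. Members and lists were chosen with earlier results of these data known. Probe names were updated through RefSeq. Alternatives covered background correction, scaling, the filter, the probe rule, slide row and replicate blocks, the arrays fitted and each array left out.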

Additional observations from a re-analysis of the deposited data

Results flagged for a closer look

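In 4 members both Spink3-/- arrays lay above both Spink3+/+ arrays while both Spink3-/-XKI/+ arrays lay below them, and so did Psmb10 with the 1 Spink3-/- array it has. Of all tested genes, 0.931% had this pattern. The nearest Spink3-/- and Spink3+/+ arrays read 2.037 and 2.034 for Stat2, and 3.618 and 3.606 for Bst2. On the other Isg15 probe these genotypes overlapped. With the row of the slide as a block, Ifit3 in Spink3-/-XKI/+ against Spink3+/+ was 0.14. The pattern is thus not secure for any of the 4. The log2 difference between Spink3-/- and Spink3-/-XKI/+ was 0.58 for Stat2, 1.48 for Ifit3, 0.79 for Bst2, 1.40 for Isg15 and 0.38 for Psmb10, and limma called none of them (adjusted p = 0.554, 0.408, 0.552, 0.489 and 0.76). The difference between the effects against Spink3+/+ is the same quantity as this comparison, and the row of the slide cannot be told apart from the genotype in the contrast of Spink3-/-XKI/+ with Spink3+/+. The opposite pattern was found in 0 members and in 1.95% of all tested genes.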

How the results depend on the processing

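The count of called members was 0 in all 3 comparisons under every alternative run. In the fit with the row of the slide as a block, the median member difference of Spink3-/-XKI/+ from Spink3+/+ was -0.014. In the same fit it was 0.40 for Spink3-/- against Spink3+/+ and 0.37 for Spink3-/- against Spink3-/-XKI/+. Leaving out 1 array at a time gave medians of 0.04 to 0.41 for Spink3-/- against Spink3+/+, -0.55 to -0.092 for Spink3-/-XKI/+ against Spink3+/+ and 0.33 to 0.72 for Spink3-/- against Spink3-/-XKI/+. An ISRE core followed by one more A stood in 45.7% of the members' promoters and 3.44% of all promoters. The cause of these changes was not tested.

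Over all tested genes, the number called for Spink3-/- against Spink3+/+ was 5. It was 7 after quantile normalization, 6 after spike-in scaling and 4 with the percentile over probes above background on all arrays. The number was 1 after normexp correction, without the filter and with probes above background on all 6 arrays. With the row block, the replicate block or only the 4 arrays compared it was also 1. With the mean of a gene's probes it was 2. For Spink3-/-XKI/+ against Spink3+/+ it was 1, with 2 after normexp correction, 3 after quantile normalization, 0 with the row block and 1 to 2 with an array left out. For Spink3-/- against Spink3-/-XKI/+ it was 1, with 0 after normexp correction, without the filter, with probes above background on all arrays, with the replicate block and with only the 4 arrays compared, 2 after spike-in scaling, 4 after quantile normalization, 3 with the row block and 0 to 3 with an array left out. No label states that the replicate numbers pair the samples. The correlation of replicate differences across genes between genotypes was -0.06, 0.03 and 0.20, the last between the Spink3-deficient genotypes. Such correlations cannot exclude a pairing. With the replicate number as a block, the member medians kept their values of 0.21, -0.35 and 0.58.

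The differences of some members changed sign under an alternative, and none of them was called. With the row block, Spink3-/-XKI/+ against Spink3+/+ was 0.14 for Ifit3, 0.24 for Igtp and 0.040 for Irgm1. Scaling or correction gave 0.042 (normexp) and 0.033 (spike-in) for Ddx58 and -0.046 (percentile over probes above background on all arrays) for Parp14 in that comparison, and 0.026 (spike-in) for Psmb8 in Spink3-/- against Spink3-/-XKI/+. The mean of its probes gave -0.072 for Irgm1 in Spink3-/- against Spink3+/+. With an array left out, Spink3-/- against Spink3+/+ ranged from -0.21 to 0.71 for Dhx58, -0.054 to 0.44 for Irf7, -0.037 to 0.20 for Ifi35, -0.029 to 0.88 for Ifi44, -0.031 to 0.63 for Rtp4, -0.037 to 0.60 for Igtp and -0.031 to 0.42 for Irgm1. Spink3-/-XKI/+ against Spink3+/+ ranged from -0.28 to 0.29 for Parp14, -0.19 to 0.18 for Ddx58, -0.70 to 0.45 for Irf7 and -1.78 to 0.33 for Mx1. Spink3-/- against Spink3-/-XKI/+ ranged from -0.24 to 0.15 for Psmb8 and -0.26 to 0.89 for Irf7.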
